A study of Mus musculus with 3 samples.

Results

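The genes of cholesterol and fatty acid synthesis, with the genes that control them through SREBP, were described in 3 acute myeloid leukemias that lack miR-196b. The genes were chosen by symbol for their role in these pathways, 29 in all, and 28 of them had a row among the 28074 symbols of the deposited table. The missing symbol was Hmgcs1, the enzyme that makes HMG-CoA, which was not analysed here. The 28 genes comprised 15 enzymes of sterol synthesis, 6 genes of SREBP control and sterol transport, and 7 enzymes of fatty acid synthesis.

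The 3 leukemias came from 3 mice and formed 1 group. The mice lacked miR-196b and carried 2 leukemia lesions, a conditional Dnmt3a deletion driven by Mx1Cre and an internal tandem duplication in the receptor gene Flt3. The genotype field gives Dnmt3afl/fl and Flt3ITD/ITD, while the titles give Dnmt3a+/-. Mx1-Cre is a recombinase under an interferon-inducible promoter and acts in blood cells but also in other tissues. Spleen cells of moribund mice were enriched for cells bearing c-Kit, a receptor of immature blood cells, before RNA extraction. Numbers 1 to 3 follow the order of the sample records and serve as names. The study set these leukemias against controls with intact miR-196b, whose data come from a separate series and were left out, so no value below shows an effect of the deletion and no test between groups was made.

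Cholesterol is built from acetyl-CoA through mevalonate, isoprenoid diphosphates, squalene and lanosterol. When sterols in the endoplasmic reticulum run low, the escort protein Scap carries the SREBP precursors to the Golgi, where they are cleaved into transcription factors, and Insig proteins hold Scap back when sterols are plentiful. SREBP-2, from Srebf2, acts mainly on sterol genes, and SREBP-1, from Srebf1, mainly on fatty acid genes. Dividing cells, leukemic cells among them, need both products for membranes.

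The promoter sequences of genes of this kind are known for binding sites of SREBP and of its partners, NF-Y, which binds CCAAT boxes, and Sp1, which binds GC boxes. Stretches upstream of the annotated start are shown for 4 genes whose values stood apart between the mice (Lss, Cyp51, Hsd17b7 and Insig1) and for 2 sterol enzymes that differed less (Ebp, which was nearly level, and Mvk, whose spread was close to the middle of expressed symbols), since the results turn on such differences. They were taken from RefSeq on GRCm38.p6, cut to bases outside annotated exons, and are written 5′ to 3′ on the strand of the gene. Capitals mark CCAAT boxes (CCAAT or its complement ATTGG) and GC boxes (GGGCGG or CCGCCC). The positions are chr10:76531388-76531587 (plus strand) for Lss, chr5:4104747-4104946 (minus) for Cyp51, chr1:169969242-169969408 (minus) for Hsd17b7, chr5:28071163-28071362 (plus) for Insig1, chrX:8193513-8193712 (minus) for Ebp and chr5:114444069-114444268 (plus) for Mvk.
Lss: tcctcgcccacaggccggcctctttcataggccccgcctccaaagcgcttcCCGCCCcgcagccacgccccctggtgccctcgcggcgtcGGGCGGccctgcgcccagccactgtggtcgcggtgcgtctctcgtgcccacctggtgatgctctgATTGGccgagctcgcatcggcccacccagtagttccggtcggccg
Cyp51: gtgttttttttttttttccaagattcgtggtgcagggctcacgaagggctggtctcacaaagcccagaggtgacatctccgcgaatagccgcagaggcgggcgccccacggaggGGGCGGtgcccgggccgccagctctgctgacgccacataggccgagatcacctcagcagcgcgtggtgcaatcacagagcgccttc
Hsd17b7: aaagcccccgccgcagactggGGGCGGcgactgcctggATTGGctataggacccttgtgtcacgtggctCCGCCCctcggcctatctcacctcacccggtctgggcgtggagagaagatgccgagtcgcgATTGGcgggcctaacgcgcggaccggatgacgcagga
Insig1: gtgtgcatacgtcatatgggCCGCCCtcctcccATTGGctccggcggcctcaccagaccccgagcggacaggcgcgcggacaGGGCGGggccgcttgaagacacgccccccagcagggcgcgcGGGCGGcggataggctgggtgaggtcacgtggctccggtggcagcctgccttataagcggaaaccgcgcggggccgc
Ebp: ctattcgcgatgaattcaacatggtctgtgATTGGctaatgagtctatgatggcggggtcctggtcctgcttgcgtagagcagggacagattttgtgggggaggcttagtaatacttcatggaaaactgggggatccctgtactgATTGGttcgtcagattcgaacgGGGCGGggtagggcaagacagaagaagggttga
Mvk: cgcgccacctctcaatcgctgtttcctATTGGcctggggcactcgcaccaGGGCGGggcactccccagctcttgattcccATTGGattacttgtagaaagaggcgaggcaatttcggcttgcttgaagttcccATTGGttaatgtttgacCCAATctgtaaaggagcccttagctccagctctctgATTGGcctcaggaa

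Promoter windows of 300 bases, from 250 before the gene start to 50 after it, were available for 23 of the 29 genes. Some genes had several, 31 windows in all, and a gene was counted if any of its windows held the motif. The last 30 bases lay in the gene's own GENCODE M21 transcript for 28 of the 31. Fdps, Fdft1, Sqle, Stard4, Scd1 and Scd2 had no entry. Among the 13 sterol enzymes with a window, 12 (92.3%) held a CCAAT box on either strand, all but Acat2, against 43.1% of the 9935 expressed symbols with a window and 41.1% of all 27025 genes. A GC box stood in 12 of the 13 (92.3%), all but Pmvk, against 65.2% of expressed symbols and 38.2% of all genes. Both motifs in 1 window were found for 11 of 13 sterol enzymes (84.6%), against 26.0% of expressed symbols. Of the 5 fatty acid enzymes with a window, Acly, Fasn and Elovl5 held a CCAAT box, and Acly alone held a GC box. The SREBP element searched, TCACNCCAC on either strand, was in the window of 1 of 23 genes, Hmgcs1, against 1.43% of expressed symbols. With at most 1 letter changed it was in 11 of 23 (47.8%), against 29.5% of expressed symbols. A match describes these letters only. In the stretches shown, CCAAT boxes were not limited to the 4 genes that stood apart between the mice: Mvk held 5 and Ebp 2, while Cyp51 held 0 in its stretch.

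Values are TPM, transcript levels scaled for length and library total, so levels can be compared between genes. TPM keeps no sequencing depth: the labels plan 30000000 reads per library, but how many were obtained is unknown, and errors below are the spread over the mice. The labelled cell type was checked first. The progenitor receptors Kit and Flt3 stood at 133 to 149 and 106 to 157 TPM, the granule enzyme Mpo at 864 to 1632 TPM and Sfpi1, which encodes the myeloid factor PU.1, at 185 to 264 TPM. Ptprc, the pan-leukocyte gene for CD45, was low in this table, at 2.25 to 3.09 TPM. Fat and liver cells, which are rich in lipid synthesis transcripts, left little trace: 6 of 8 adipocyte markers and 6 of 6 hepatocyte markers had a mean below 1 TPM, Plin1 was at 0 in all mice, and Adipoq was at 0 in mice 2 and 3. The adipocyte markers summed to 27.2 to 37.1 TPM, most of it from Lipe, a lipase gene at 23.7 to 31.8 TPM, and the rest mainly from Retn, the gene for resistin, at 3.04 to 4.98 TPM. Markers of neutrophils summed to 2495, 6499 and 21595 TPM in mice 1, 2 and 3, so the libraries differed widely in that lineage, and in bulk RNA more cells of a type and more RNA per cell cannot be told apart.

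All 28 genes reached a mean of 1 TPM, as did 54.1% of all symbols, and each did so in every mouse. The sum over the 28 was 1276, 1423 and 1091 TPM in mice 1, 2 and 3, or 0.138%, 0.155% and 0.118% of the table. By median, fatty acid enzymes stood highest, at 6.30 ± 0.26 log2(TPM + 1) units (SD, n = 3), followed by SREBP control genes at 5.66 ± 0.19 and sterol enzymes at 4.48 ± 0.16. The median over the 15181 symbols with a mean of at least 1 TPM, called expressed below, was 4.19 ± 0.08. Of the 28 genes, 19 lay above the middle of the expressed symbols and 4 at or above their 90th percentile.

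**Figure D1:**
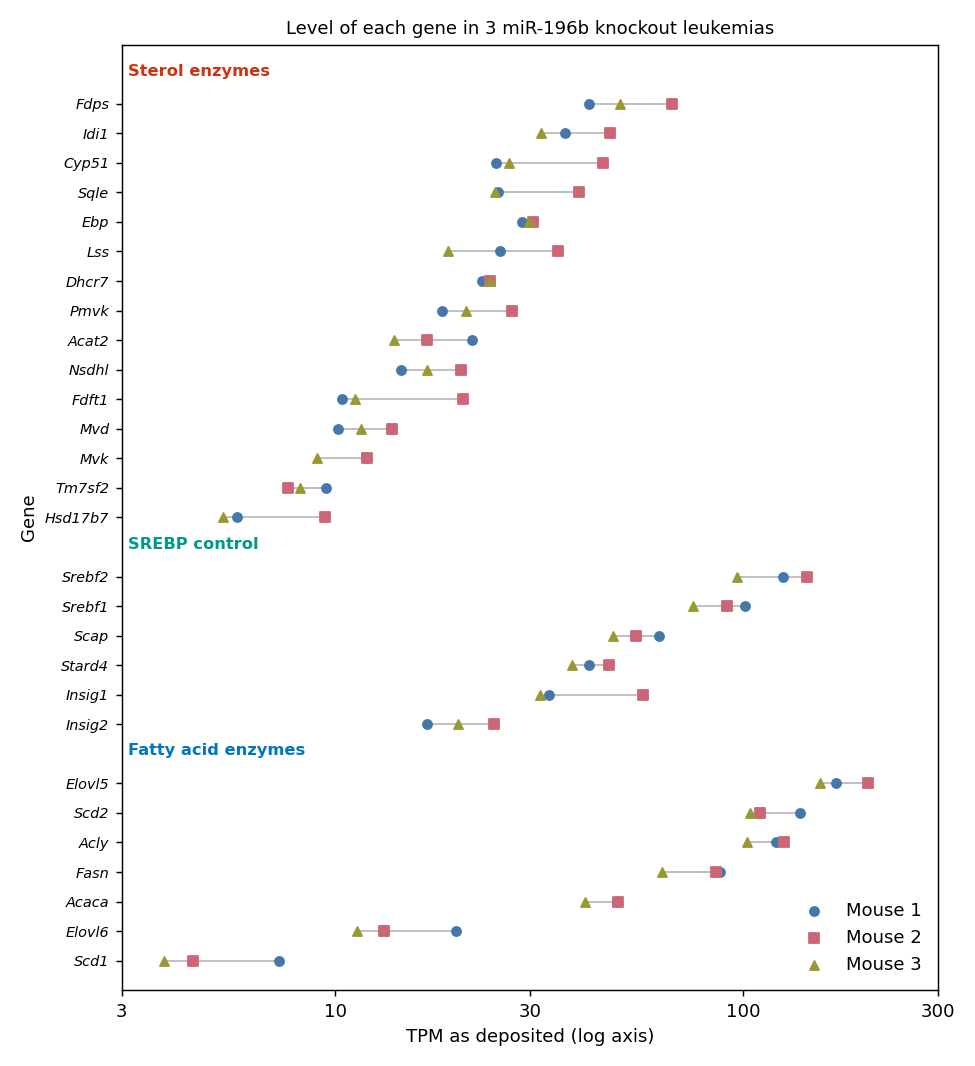
Level of each of the 28 genes in TPM (log axis), 1 point per mouse, with a grey line from the lowest to the highest mouse. Elovl5, at 154 to 202 TPM, lies farthest right and Scd1, at 3.81 to 7.27 TPM, farthest left, and the squares of mouse 2 stand at the right end for most sterol enzymes.

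Elovl5, which lengthens polyunsaturated fatty acids, had the highest level of the 28, at 175 ± 24.8 TPM (SD, n = 3). Its range of 154 to 202 TPM did not overlap the next gene, Srebf2. The other genes above 100 TPM were Srebf2 (121 ± 23.5), Scd2 (117 ± 17.7) and Acly (116 ± 12.4). Down the whole order, 24 of 27 neighbouring pairs had ranges that overlapped, so their order is not resolved beyond the spread. The exceptions were the gaps between Elovl5 and Srebf2, between Acly and Srebf1, and between Fasn and Scap. At the bottom stood Tm7sf2 (8.46 ± 0.93 TPM), Hsd17b7 (6.84 ± 2.27) and Scd1 (5.19 ± 1.83).

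Sterol enzymes were read along the pathway. Acat2, the thiolase that joins acetyl-CoA units in the cytosol, had 21.6, 16.7 and 14.0 TPM in mice 1, 2 and 3. It shares 43.7% of its 31-base stretches with the near-identical Acat3, at 2.62 to 5.35 TPM, so its level depends on how reads were divided. The mevalonate kinases were modest. Mvk, mevalonate kinase, had 11.9, 12.0 and 9.03 TPM, and Pmvk, phosphomevalonate kinase, had 18.2, 27.1 and 20.9 TPM. Mvd, the decarboxylase that yields isopentenyl diphosphate, had 10.2, 13.8 and 11.6 TPM. Pmvk and Mvd were highest in mouse 2, and Mvk was level in mice 1 and 2.

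The isoprenoid steps had the highest mean levels among the sterol enzymes, though both genes overlapped Cyp51 in range, and Idi1 also Sqle and Lss. Idi1, the isopentenyl diphosphate isomerase, had 36.6, 47.2 and 31.9 TPM. Fdps, farnesyl diphosphate synthase, had 41.8, 66.7 and 49.9 TPM. Mouse 2 was highest for both, 1.28 and 1.58 times mouse 1. Reads of both can be shared with other annotated genes. Of the 31-base stretches of Idi1, 18.8% recur elsewhere, 18.4% in Gm13502, which had 0.36, 4.24 and 0.48 TPM and was also highest in mouse 2. Of those of Fdps, 27.9% recur, mostly in Gm43738, whose exons overlap Fdps on the same strand. The part of shared reads in these values was not tested.

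The squalene steps commit carbon to sterols, and here mouse 2 stood apart. Fdft1, squalene synthase, had 10.4, 20.6 and 11.2 TPM, the widest of the 28 genes, with mouse 2 at 1.90 times mouse 1 and 1.78 times mouse 3 on the TPM + 1 scale. Sqle, squalene epoxidase and a rate-limiting step, had 25.1, 39.6 and 24.6 TPM. Lss, lanosterol synthase, had 25.3, 35.1 and 18.9 TPM. In all 3 genes mouse 2 was above both other mice. Exons of Fdft1 overlap Ctsb on the opposite strand, at 53.8, 62.5 and 68.1 TPM, and those of Lss overlap 4930483K19Rik, at 0.26, 0.87 and 0.24 TPM. The first of these partners was highest in mouse 3 and the second in mouse 2, and their part in the values was not tested.

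Past lanosterol the enzymes split. Cyp51, the lanosterol demethylase, had 24.7, 45.2 and 26.7 TPM, with mouse 2 at 1.79 and 1.67 times mice 1 and 3. Its exons overlap Akap9 on the opposite strand, at 52.5, 57.7 and 44.5 TPM, which was also highest in mouse 2. Hsd17b7, a ketosteroid reductase of the demethylation complex, had 5.76, 9.45 and 5.30 TPM, and its partner Nsdhl had 14.5, 20.3 and 16.8 TPM. All 3 were highest in mouse 2. The sterol reductases and isomerase near the end of the pathway were flatter. Ebp, the sterol isomerase, had 28.7, 30.5 and 29.9 TPM, and Dhcr7, the reductase that acts last on one branch, had 22.9, 23.9 and 23.9 TPM. As deposited, their SDs of 0.04 and 0.03 log2 units lay above those of only 3.21% and 1.90% of expressed symbols. This depends on the scaling of the libraries. Scaled to a common upper quartile, the SD of Ebp rose from 0.92 to 2.24 TPM and that of Dhcr7 from 0.56 to 1.70 TPM. Tm7sf2, a reductase of the sterol nucleus, was the only sterol enzyme lowest in mouse 2, at 9.49, 7.68 and 8.21 TPM. It shares 10.7% of its 31-base stretches with Vps51, which overlaps it on the same strand and had 49.2 to 59.7 TPM.

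The control genes had a median of gene means of 48.5 TPM, against 22.1 TPM for the sterol enzymes, with Insig2 the lowest of them at 20.4 ± 3.88 TPM. Srebf2 had 125, 143 and 96.3 TPM, and Srebf1 had 101, 91.2 and 75.4 TPM. Scap had 62.0, 54.5 and 47.9 TPM. Insig1, itself a well known SREBP target, had 33.4, 56.7 and 31.7 TPM and was the widest of the control genes, at 1.68 and 1.77 times mice 1 and 3 in mouse 2. Insig2, whose transcription is less tied to SREBP, had 16.8, 24.5 and 20.0 TPM. Stard4, a carrier that moves sterol between membranes, had 41.9, 46.8 and 38.1 TPM. Mouse 2 was highest for Srebf2, Insig1, Insig2 and Stard4, and mouse 1 for Srebf1 and Scap.

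Fatty acid enzymes were read in the order of synthesis. Acly, which makes cytosolic acetyl-CoA from citrate, had 120, 126 and 102 TPM. Acaca, the carboxylase that forms malonyl-CoA, had 49.0, 49.3 and 40.8 TPM, and Fasn, the synthase that builds palmitate, had 87.6, 85.7 and 63.2 TPM. Mice 1 and 2 were close for these genes and mouse 3 was lowest. Scd1 and Scd2 encode desaturases that make monounsaturated fatty acids. Scd2 had 137, 110 and 104 TPM and Scd1 had 7.27, 4.49 and 3.81 TPM. Elovl6, which extends palmitate, had 19.8, 13.1 and 11.3 TPM, again highest in mouse 1. All 7 fatty acid enzymes were lowest in mouse 3, against 42.6% of expressed symbols, and 6 of 7 after scaling the libraries to a common upper quartile, against 30.5%. This was not limited to them: 5 of 6 control genes were lowest there as deposited, and 3 of 6 after scaling. Over all 28 genes the counts were 18 and 13.

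Ratios of TPM + 1 between partner genes were taken within each mouse, which removes nearly all of any difference in scaling. The added 1 makes the ratio of Scd2 to Scd1 smaller than that of their TPM, since Scd1 is low. Scd2 exceeded Scd1 by 4.28 ± 0.20 log2 units (SD, n = 3), which is 16.7, 20.2 and 21.8 times in mice 1, 2 and 3. Elovl5 exceeded Elovl6 by 3.51 ± 0.43 log2 units. Insig1 exceeded Insig2 by 0.92 ± 0.27, Fasn exceeded Acaca by 0.74 ± 0.11 and Srebf2 exceeded Srebf1 by 0.43 ± 0.18. The first gene was the higher in every mouse for all 5 pairs. The smallest ratio was that of Srebf2 to Srebf1, at 1.23, 1.56 and 1.27 times. Between 6.81% and 8.14% of the 31-base stretches of Scd2 and Scd1 recur in other genes, mostly in Scd3, at 6.08 to 10.1 TPM. Of those of Acaca 33.4% recur, 31.7% in Gm5182, so the ratio of Fasn to Acaca also depends on how reads were divided.

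**Figure D2:**
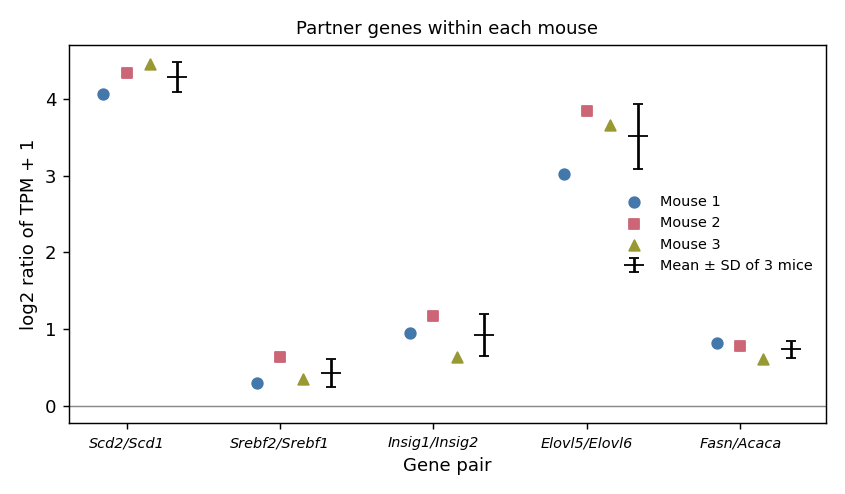
Log2 ratio of TPM + 1 for 5 gene pairs, 1 point per mouse, with the mean and SD of the 3 mice in black. All points lie above 0, from 0.30 for Srebf2/Srebf1 in mouse 1 to 4.45 for Scd2/Scd1 in mouse 3.

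The mice were then compared gene by gene. Of the 15 sterol enzymes, 12 were highest in mouse 2, against 31.1% of expressed symbols. Dhcr7 was highest in mouse 3, and Acat2 and Tm7sf2 in mouse 1. Over all 28 genes, 19 were highest in mouse 2, 8 in mouse 1 (48.6% of expressed symbols) and 1 in mouse 3 (20.3%). After upper-quartile scaling these counts were 19, 7 (35.6%) and 2 (30.4%). For the sterol enzymes the count in mouse 2 after scaling was 11 of 15, against 33.9%, because Ebp moved to mouse 3. Of the control genes 4 of 6 were highest in mouse 2 under either scaling. Of the fatty acid enzymes 3 of 7 were as deposited, and 4 of 7 after scaling. The sum over the sterol enzymes was 307, 416 and 303 TPM in mice 1, 2 and 3, while that over the fatty acid enzymes was 589, 591 and 479 TPM.

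**Figure D3:**
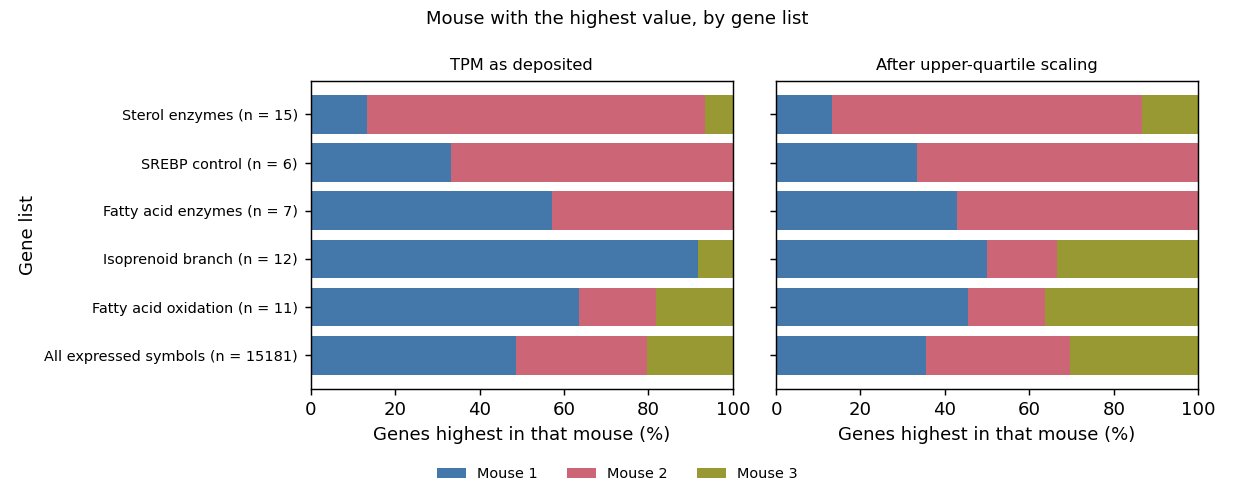
Percent of the genes of each list that were highest in each mouse, as deposited (left) and after upper-quartile scaling (right), over genes with a mean of at least 1 TPM. Mouse 2 takes 12 of 15 sterol enzymes on the left and 11 of 15 on the right, against 31.1% and 33.9% of all expressed symbols.

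By size, 10 of 28 genes had a highest mouse at least 1.5 times the lowest on the TPM + 1 scale (27.2% of expressed symbols did), and 0 of 28 reached 2 times (8.57% did), so the set as a whole was not far from the background in the size of its differences. The 10 included 7 sterol enzymes, Insig1, Elovl6 and Scd1. In pairs of mice, mouse 2 was at least 1.5 times mouse 1 for 6 genes (7.85% of expressed symbols) and at least 1.5 times mouse 3 for 6 (6.45%). Mouse 1 was at least 1.5 times mouse 2 for 1 gene (8.66%), Scd1, and at least 1.5 times mouse 3 for 3 (9.81%), which were Acat2, Elovl6 and Scd1. Mouse 3 was at least 1.5 times mouse 1 or mouse 2 for 0 of 28 (6.36% and 4.79%). Mouse 2 was at least 1.5 times both other mice for Fdft1, Sqle, Cyp51, Hsd17b7 and Insig1, which is 5 of 28 genes against 2.40% of expressed symbols, and for the same 5 genes after upper-quartile scaling, against 2.33%. No fatty acid enzyme met this. The median SD was 0.28 log2 units over sterol enzymes, 0.24 over control genes and 0.21 over fatty acid enzymes, against 0.21 over expressed symbols. The spread of the sterol enzymes rested largely on mouse 2: without it 1 sterol enzyme in place of 7 differed by 1.5 times, Acat2. Their median SD was then 0.13, against 0.18 over expressed symbols. Over all 28 genes the count of 10 was 6 without mouse 1 and 3 without mouse 2. That of the fatty acid enzymes, 2, was 0 without mouse 1 and 1 without mouse 3. Such counts fall for expressed symbols too, from 27.2%. Mice 1 and 3 differed by 1.5 times for 9.81% (mouse 1 higher) and 6.36% (mouse 3 higher). Mice 2 and 3 did for 6.45% (mouse 2 higher) and 4.79% (mouse 3 higher), and mice 1 and 2 for 8.66% (mouse 1 higher) and 7.85% (mouse 2 higher).

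**Figure D4:**
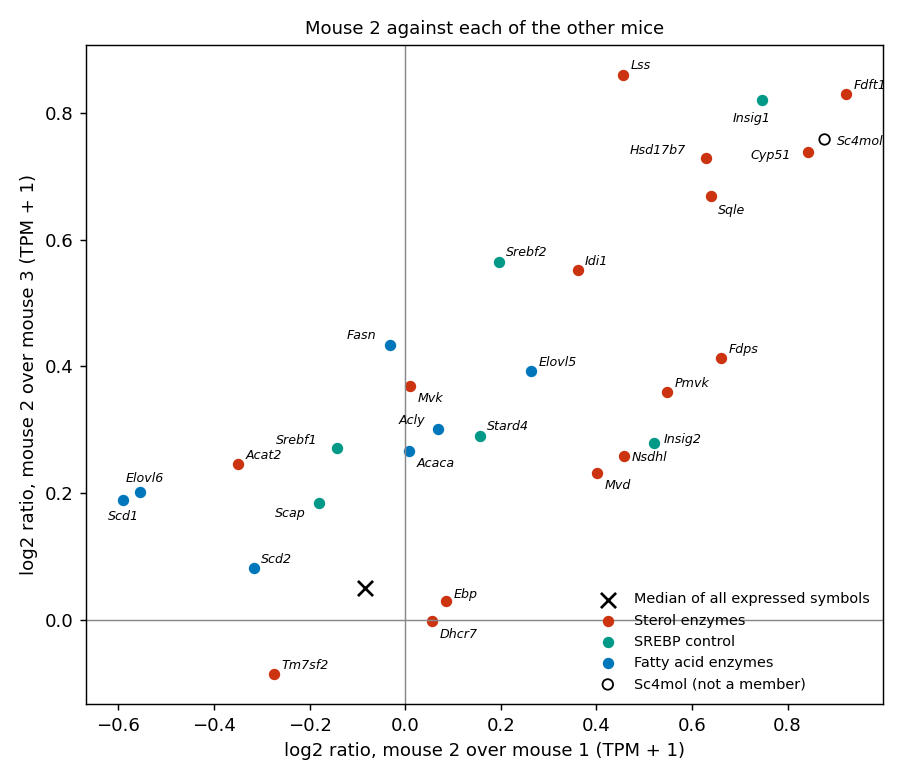
Log2 ratio of mouse 2 to mouse 1 (horizontal) and to mouse 3 (vertical) on the TPM + 1 scale for the 28 genes, coloured by list, with the median of all expressed symbols as a cross and Sc4mol, a gene outside the set, as an open circle. Fdft1 (0.92 and 0.83) and Insig1 (0.75 and 0.82) lie at the upper right, and Scd1 (-0.59 and 0.19) and Elovl6 (-0.55 and 0.20) at the left. Of the 7 other expressed sterol synthesis genes, Sc4mol alone is drawn and alone was at least 1.5 times higher in mouse 2 than in both others.

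Genes of the same pathways outside the 28 were read for comparison. Sc4mol, the older symbol of the methylsterol oxidase Msmo1, had 28.9, 53.9 and 31.5 TPM. Mouse 2 was at least 1.5 times both other mice for this gene. It was the only 1 of the 7 expressed genes of its list to meet this, against 2.40% of expressed symbols. Lbr, the highest of that list, had 131, 102 and 129 TPM, lowest in mouse 2. The list summed to 344, 341 and 316 TPM in mice 1, 2 and 3. Among the 7 other expressed genes of sterol synthesis read here, Sc4mol included, 4 were highest in mouse 2 (5 after scaling), and 7 of 14 expressed genes of sterol uptake and efflux were under either scaling, though Abca1, the cholesterol exporter, was lowest there at 3.99, 2.12 and 3.66 TPM.

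Neighbouring pathways were counted in the same way, beside 31.1% of expressed symbols highest in mouse 2 as deposited and 33.9% after scaling. None of 12 genes of the isoprenoid branch to prenylated proteins, dolichol and ubiquinone was highest in mouse 2 as deposited, and 2 of 12 were after upper-quartile scaling. Of 13 genes of SREBP processing and sterol-regulated degradation 4 were highest in mouse 2, and 7 after scaling, with a median SD of 0.11 log2 units. Of 11 expressed genes of fatty acid oxidation 2 were highest in mouse 2 under either scaling, and of 18 other expressed genes of fatty acid synthesis 3 were, and 5 after scaling.

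Other lists also differed between these libraries. Immediate early genes, which respond within minutes to stimuli and to tissue handling, summed to 2900, 5785 and 3721 TPM in mice 1, 2 and 3. Under either scaling 13 of 15 were highest in mouse 2, against 31.1% of expressed symbols as deposited and 33.9% after scaling. Mouse 2 was at least 1.5 times both other mice for 6 of these 15 genes (Fos, Fosb, Atf3, Dusp1, Klf2 and Klf4) under either scaling. Of expressed symbols 2.40% met this as deposited and 2.33% after scaling, and of the 15 sterol enzymes 4 did. Macrophage markers summed to 289, 619 and 1373 TPM, B cell markers to 47.4, 89.7 and 124 TPM and erythroid markers to 60.1, 42.8 and 113 TPM. Cell cycle genes summed to 1592, 1432 and 1883 TPM, lowest in mouse 2. The macrophage sum rested on Lyz2, a gene that neutrophils also express, at 194, 450 and 1209 TPM. Without it the other 8 markers summed to 95.1, 168 and 164 TPM, lowest in mouse 1 and close in mice 2 and 3. Most of that sum was the marker Cd68, at 68.2, 124 and 107 TPM. Of the 6 expressed macrophage markers, Lyz2 included, 2 were highest in mouse 2 and 4 in mouse 3. The neutrophil, B cell, erythroid and cell cycle sums were highest in mouse 3, and the immediate early sum in mouse 2. The part of any of these in the sterol values was not tested. With 1 library per mouse, a difference between the leukemias and one between their handling cannot be told apart.

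The annotation limits some of these values. The 29 genes lie on 15 chromosomes in GENCODE M21 (GRCm38). Exons of 7 of the 28 measured genes overlap another gene on the opposite strand, among them Fdft1, Lss and Cyp51, and those of 4 overlap another gene on the same strand, which are Fdps, Tm7sf2, Srebf1 and Scd2. Reads from same-strand overlaps cannot be separated by strand. Whether strand was used in quantification is not given in the sources used here. More than 5% of the 31-base stretches recurred in other genes for 9 of the 28, which were Acat2, Idi1, Fdps, Fdft1, Tm7sf2, Acaca, Elovl6, Scd1 and Scd2. For Sqle, Cyp51, Hsd17b7 and Lss the share was 0.27% to 0.83%. For Insig1 it was 3.46%, and for Fdft1 14.3%, all of it with Gm6781, at 0 TPM in all mice.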

How the data were processed

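RNA of c-Kit-enriched leukemic spleen cells from 3 mice was sequenced (paired-end, 150 nt, RNA integrity above 8, per the labels' protocols). The authors deposited 1 table of values per gene symbol. Its name calls them log2 FPKM, but they were linear and the columns summed to 929731, 927169 and 928490, and were therefore read as TPM deposited by the authors. The submitters' processing notes name kallisto and mm10, and versions and annotation are not given in the sources used here. The table's other 3 per-sample columns come from a separate series and were left out.

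Rows without a symbol (795) or with a calendar date as symbol (27) were left out, at most 0.61% and 0.20% of a column, and values of 90 symbols on several rows were summed, none of them a member. Members were matched by symbol, and other list genes by symbol or RefSeq synonym. Spread and ratios were computed on log2(TPM + 1), and expressed means a mean TPM of at least 1. With 1 group no test was possible, so counts are set beside the percent of all expressed symbols. The design named all members and, of other lists, their extremes and missing pathway steps; other genes named were chosen after their values were seen. Members and lists were chosen with earlier results of these data known, and the immediate early list, the macrophage sum without Lyz2 and the count of genes at least 1.5 times higher in mouse 2 than in both other mice were added after seeing the data. Some genes of these pathways are not reported here. Nothing says that the mice shared a litter or day, and the spread covers biology and handling together.

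Alternatives covered a pseudocount of 0.1, detection at 0.1 or 5 TPM, filters, upper-quartile scaling, repeated symbols left out and each mouse left out. Stretches of 31 bases, and exon overlaps, were taken from GENCODE M21. The functions were tested on simulated data. Python 3.11.15, numpy 2.4.6, pandas 2.3.3 and matplotlib 3.10.9 were used.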

Additional observations from a re-analysis of the deposited data

How the results depend on the processing

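No paired analysis was possible because the 3 mice make up a single group. All 28 genes had a mean of at least 5 TPM, the strictest detection threshold, with Scd1 the lowest at 5.19 TPM. Under upper-quartile scaling 0 of 28 gene levels and 0 of 4 list levels moved by more than their spread. The scaling factors were 0.948, 1.01 and 1.05 in mice 1, 2 and 3. They nearly cancel in a mean of 3 mice, so this says little about the stability of levels. A mean of 3 mice cannot move by its SD when 1 is left out, and repeated symbols held no member, so these settings say nothing about it. With a pseudocount of 0.1, 0 of 4 list levels and 1 of 5 partner ratios moved, that of Scd2 to Scd1, from 4.28 to 4.51, since this pseudocount weighs less on the low level of Scd1. Upper-quartile scaling raised the control genes that differed by 1.5 times from 1 to 2, and lowered those lowest in mouse 3 from 5 to 3. The median SD of all expressed symbols moved from 0.208 to 0.134 with no filter, which adds genes at or near 0.

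With each mouse left out, the number of genes that differed by 1.5 times ranged from 3 (without mouse 2) to 7 over all 28, from 1 (without mouse 2) to 5 over sterol enzymes, from 0 (without mouse 2) to 1 over control genes and from 0 (without mouse 1) to 2 over fatty acid enzymes, with 1 without mouse 3. The median SD ranged from 0.152 to 0.251 over all 28, from 0.133 to 0.322 over sterol enzymes, from 0.133 to 0.215 over control genes, from 0.187 to 0.282 over fatty acid enzymes and from 0.144 to 0.189 over expressed symbols. A count over fewer mice cannot rise by construction, for these genes or for expressed symbols, whose shares for each pair of mice are given above. A median SD can move either way. The depth is unknown, so counting error in low values cannot be stated.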
